A study of Mus musculus with 20 samples.

Results

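The 7 genes described here, Kit, Cd34, Cd48, Gata2, Myb, Runx1 and Runx1t1, mark or regulate blood progenitors that have not yet matured. They were chosen by name from the 19505 gene symbols on the array, taking probe sets annotated with exactly 1 symbol, and each of the 7 had 1 such probe set. RNA levels came from 20 mouse Clariom S microarrays in 10 groups of 2 arrays, all in the C57BL/6 background. Of these, 8 arrays held lineage-negative marrow cells of female WT mice that had been grown in medium with erythropoietin, with interleukin 6 at 100 ng/mL from the start of culture (D1-IL6 and D2-IL6) or without it (D1-Control and D2-Control). D1 and D2 are collection points that the labels do not define further. The other 12 arrays held erythroblasts from mice aged 1 year. The mutant genotype was the mDia1 and miR-146a double knockout (DKO, 2 mice, all arrays from females) and its control the double wild type (DWT, 1 male and 1 female mouse). Proerythroblasts were named stage I, basophilic with polychromatic erythroblasts stage II+III and orthochromatic erythroblasts stage IV. How the stages were isolated is not given in the sources used here. No label says which DKO arrays of separate stages came from 1 mouse, so their replicate numbers carry no pairing.

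Kit encodes the receptor tyrosine kinase for stem cell factor, which red cell progenitors need to survive and divide and which is lost from the surface as erythroblasts mature. Gata2, Myb and Runx1 encode transcription factors of blood stem and progenitor cells. In erythroid maturation GATA1 replaces GATA2 at many shared sites, Kit regulatory sites among them. Runx1t1 encodes ETO, a corepressor of the family that includes ETO2 (encoded by Cbfa2t3), and is best known as the fusion partner of RUNX1 in human acute myeloid leukaemia. Cd34 encodes a sialomucin of stem and progenitor cells and endothelium, and Cd48 a signalling surface protein of most white blood cells that long-term stem cells lack. Mast cells also express Kit and Gata2, and basophils Gata2.

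The start regions of 4 members are printed because Kit, Myb and Cd34 had similar profiles over the arrays while Runx1 had a different one. They are RefSeq promoter windows on GRCm38.p6 of 250 bases before to 50 after the start site, 5′ to 3′ on the gene's strand. Capitals mark matches on either strand to GATAA (a core of GATA sites), TGTGGT (a core of RUNX sites) or AACNG (a core of MYB sites), and matches of AACNG on opposite strands can overlap.
Kit, chr5:75574737-75575036, plus strand: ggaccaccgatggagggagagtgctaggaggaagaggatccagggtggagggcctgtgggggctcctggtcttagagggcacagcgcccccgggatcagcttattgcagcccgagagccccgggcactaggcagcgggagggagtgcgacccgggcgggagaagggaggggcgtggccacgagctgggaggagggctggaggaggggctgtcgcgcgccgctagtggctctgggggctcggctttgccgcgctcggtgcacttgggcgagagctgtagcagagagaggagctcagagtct
Myb, chr10:21160935-21161234, minus strand: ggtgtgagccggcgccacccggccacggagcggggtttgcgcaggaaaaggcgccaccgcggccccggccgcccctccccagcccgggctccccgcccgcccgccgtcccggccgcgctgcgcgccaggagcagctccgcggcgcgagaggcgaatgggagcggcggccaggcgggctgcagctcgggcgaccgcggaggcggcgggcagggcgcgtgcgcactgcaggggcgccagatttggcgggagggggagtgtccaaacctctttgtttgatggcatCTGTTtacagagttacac
Cd34, chr1:194938571-194938870, plus strand: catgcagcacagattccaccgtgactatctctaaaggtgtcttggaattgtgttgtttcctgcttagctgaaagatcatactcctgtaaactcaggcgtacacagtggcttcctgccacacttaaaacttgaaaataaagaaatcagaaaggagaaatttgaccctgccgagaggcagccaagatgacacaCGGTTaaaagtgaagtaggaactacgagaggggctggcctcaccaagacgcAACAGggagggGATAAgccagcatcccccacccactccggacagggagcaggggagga
Runx1, distal start site, chr16:92826025-92826324, minus strand: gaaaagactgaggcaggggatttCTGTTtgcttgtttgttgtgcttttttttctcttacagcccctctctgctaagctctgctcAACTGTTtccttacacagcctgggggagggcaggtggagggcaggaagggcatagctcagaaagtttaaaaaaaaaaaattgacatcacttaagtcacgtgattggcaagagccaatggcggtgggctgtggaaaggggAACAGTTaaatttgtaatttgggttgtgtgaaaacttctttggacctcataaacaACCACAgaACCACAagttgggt
The Kit window held none of the 3 motifs, the Myb window 1 AACNG and the Cd34 window 1 GATAA and 2 AACNG, while the distal Runx1 window held 2 TGTGGT and 5 AACNG. The other Runx1 window, chr16:92697280-92697579, is not printed and held none of the 3 motifs, as the Kit window did. Of 32851 promoter windows in the table, 25.4% held GATAA, 16.8% TGTGGT and 80.3% AACNG. The table listed 9 windows for 6 members, of which 1 held GATAA, 2 held TGTGGT and 5 held AACNG. These letters describe the windows and say nothing of binding. The other members lie at chr1:171681245-171705258 (Cd48), chr6:88193891-88207032 (Gata2) and chr4:13742628-13895056 (Runx1t1).

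The mature 5p strand of the miRNA deleted in DKO mice is shown with its seed (bases 2 to 8) in capitals, from RefSeq at chr11:43374435-43374456 on the minus strand of GRCm38.p6.
miR-146a-5p: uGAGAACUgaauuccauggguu
It had no probe set among those used here, so the deletion of miR-146a was not checked. Diaph1, which encodes mDia1, had a log2 signal of 6.87 to 7.59 in DKO arrays, near background in 6 of 6, against 9.29 to 11.49 in DWT arrays. The position of that probe set relative to the deletion is not known here.

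Values are log2 signals, on which 1 unit is a doubling, and a signal counts as near background when it lies under the 95th percentile of the array's own background probe sets (7.25 to 7.74 over the arrays). No gene was left out for low signal. Of the 20 arrays, Kit was near background in 6, Cd34 in 5, Cd48 in 1, Myb in 4, Runx1t1 in 12 and Gata2 and Runx1 in 0. Between 34.9% and 43.1% of genes were above that level in an array. The arrays of a group correlated at 0.970 or more over all genes, except the DKO-I pair at 0.902. DKO-I replicate 2 stood apart, with a median of positive-control probe sets of 10.04 against 10.81 to 11.48 in the other 19 arrays. The erythroid marker list (9 measured genes) averaged 14.36 to 14.63 in the cultured arrays. Among freshly isolated cells it averaged 15.14 and 15.16 in DKO-IV arrays but 9.37 and 8.80 in DKO-I arrays, against 12.51 and 12.36 in DWT-I. The neutrophil list (10 genes, all above background) averaged 17.26 and 15.75 in the DKO-I arrays and 16.50 and 16.70 in the DWT-I arrays, so the arrays labelled proerythroblasts carried strong signals of neutrophil genes. In bulk RNA, fewer cells of a type and less RNA of a gene per cell cannot be told apart.

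**Figure D1:**
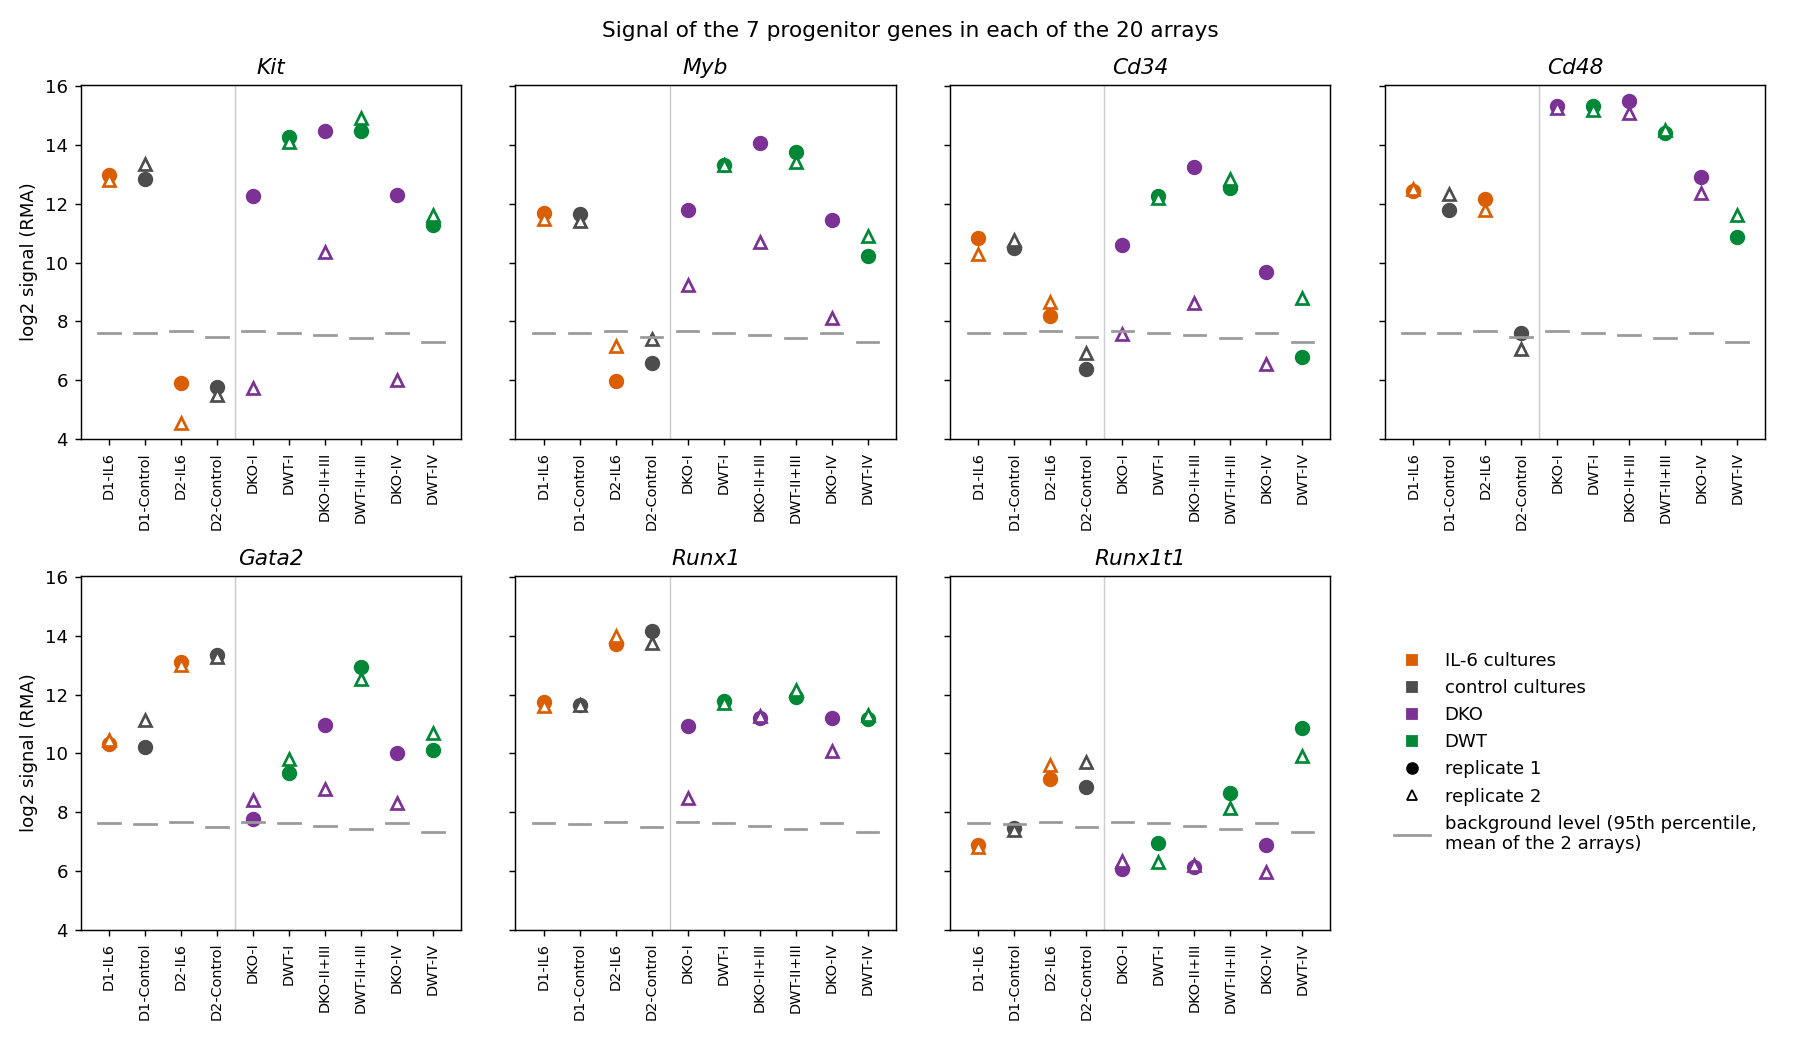
Log2 signal of each of the 7 genes (vertical axes) in the 10 groups (horizontal axes), with a filled circle for replicate 1, an open triangle for replicate 2 and a grey line at the background level of the group. Kit and Myb sit under the line in all 4 D2 arrays, Gata2 and Runx1 are highest there, and Kit differs widely between the 2 DKO arrays of each stage.

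Between D1 and D2 the cultures lost Kit and Myb signal and gained Gata2, Runx1 and Runx1t1 signal, with or without interleukin 6. With interleukin 6, 6 of the 7 genes passed (adjusted p under 0.05 in limma), 3 higher and 3 lower, where 33.2% of all genes tested did (13.0% higher and 20.2% lower). Kit had signals of 5.92 and 4.54 in D2-IL6 arrays, against 12.99 and 12.81 in D1-IL6 arrays. The D2 signals were near background, so the fall was at least 37.8-fold, and the fitted difference was -7.67 ± 0.41 (log2, SE, adjusted p = 3.15e-07). Myb, whose protein keeps progenitors dividing, had 5.97 and 7.17 at D2 against 11.69 and 11.48 at D1, at least 15.2-fold lower. Cd34 had 8.19 and 8.66 at D2 against 10.83 and 10.29 at D1 (-2.13 ± 0.32, adjusted p = 0.000495), a call lost in a fit of all 20 arrays (0.251). These 3 genes fell, and only Cd34 stayed above background. Gata2 had 13.11 and 13.02 at D2 against 10.31 and 10.45 at D1 (2.68 ± 0.27), and Runx1 13.72 and 14.00 against 11.73 and 11.62 (2.18 ± 0.19). Runx1t1 had 9.14 and 9.61 at D2 against 6.88 and 6.81 at D1, where it was near background, a rise of at least 3.38-fold. Of the 4 genes that encode transcriptional regulators, 3 thus rose and Myb fell. Cd48 did not pass, with 12.18 and 11.80 at D2 against 12.44 and 12.51 at D1 (-0.49 ± 0.28, adjusted p = 0.217).

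Without interleukin 6 all 7 genes passed between D1 and D2, where 43.2% of all genes did. Kit, Cd34, Cd48 and Myb fell (23.5% of all genes) and Gata2, Runx1 and Runx1t1 rose (19.7%). Kit had 5.78 and 5.49 in D2-Control arrays against 12.86 and 13.35 in D1-Control arrays, at least 49.2-fold lower (-7.47 ± 0.41, adjusted p = 3.09e-07). Myb had 6.59 and 7.42 at D2 against 11.67 and 11.43 at D1, at least 16.7-fold lower (-4.54 ± 0.41, adjusted p = 9.73e-06). Cd34 had 6.39 and 6.94 at D2 against 10.48 and 10.76 at D1, at least 8.79-fold lower (-3.96 ± 0.32, adjusted p = 4.81e-06). All 3 genes were near background at D2. Cd48 fell by 4.73 ± 0.28 (adjusted p = 5.21e-07), with 7.59 and 7.06 at D2, of which 1 array was near background, against 11.78 and 12.33 at D1.

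Gata2 had 13.35 and 13.29 in D2-Control arrays against 10.22 and 11.12 in D1-Control arrays, a 6.28-fold rise (2.65 ± 0.27 log2, adjusted p = 2.41e-05). Runx1 had 14.16 and 13.76 at D2 against 11.65 and 11.66 at D1, a 4.94-fold rise (2.31 ± 0.19, adjusted p = 5.07e-06). For both genes the D2 cultures had the highest mean signals of the 10 groups. Runx1t1 had 8.87 and 9.71 at D2 against 7.48 and 7.38 at D1, where it was near background, a rise of at least 3.20-fold (1.86 ± 0.33, adjusted p = 0.00112). Gata1, the factor that follows Gata2, had a D2 minus D1 difference of -0.28 ± 0.23 (adjusted p = 0.396) with interleukin 6 and 0.29 ± 0.23 (adjusted p = 0.334) without it. Its target Klf1 fell in both, by 0.72 ± 0.13 with interleukin 6 and by 0.81 ± 0.13 without it. Thus 6 of the 7 genes passed in the same direction in both kinds of culture, in comparisons that share no array but share the fitted spread. Of all genes, 33.2% passed with interleukin 6 and 43.2% without it, and the share that passed in the same direction in both was not counted.

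Cd48 and Cd34 were the genes whose signal at D2 went with interleukin 6. Cd48 had 12.18 and 11.80 in D2-IL6 arrays against 7.59 and 7.06 in D2-Control arrays, a fitted difference of 4.66 ± 0.28 log2 (adjusted p = 5.69e-06). Of the D2-Control arrays, 1 was near background, so the size of this difference is not exact. Cd34 had 8.19 and 8.66 against 6.39 and 6.94, at least 1.92-fold higher, since both control arrays were near background (1.76 ± 0.32, adjusted p = 0.0126). These 2 of 7 passed where 3.31% of all genes did (2.92% higher). The arrays of the treated and untreated groups did not overlap for either gene, as for 16.3% of all genes in this direction. The Cd34 call was lost without D2-Control replicate 1 (adjusted p = 0.0785), without D2-IL6 replicate 2 (0.0768), and in fits of only the 4 arrays (0.058) or of all 20 arrays (0.849). The other 5 genes ranged from -0.43 to 0.09 at D2 and did not pass.

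At D1 none of the 7 genes passed for interleukin 6 in limma, and none had an unadjusted p under 0.05, in a comparison that called 0.0511% of all genes. Their differences ran from -0.59 for Runx1t1, near background in all 4 D1 arrays, to 0.42 for Cd48. The difference of the interleukin 6 effects, D2 minus D1, passed for Cd48 (4.25 ± 0.40, adjusted p = 0.000553) and did not pass for Cd34 (1.82 ± 0.46, adjusted p = 0.137), where 1.19% of all genes passed (1.17% higher). The same contrast compares the steps from D1 to D2, which for Cd48 were -0.49 ± 0.28 with interleukin 6 and -4.73 ± 0.28 without it. The D2-Control arrays enter both the step to D2 and the interleukin 6 comparison at D2, so these values are not independent.

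**Figure D2:**
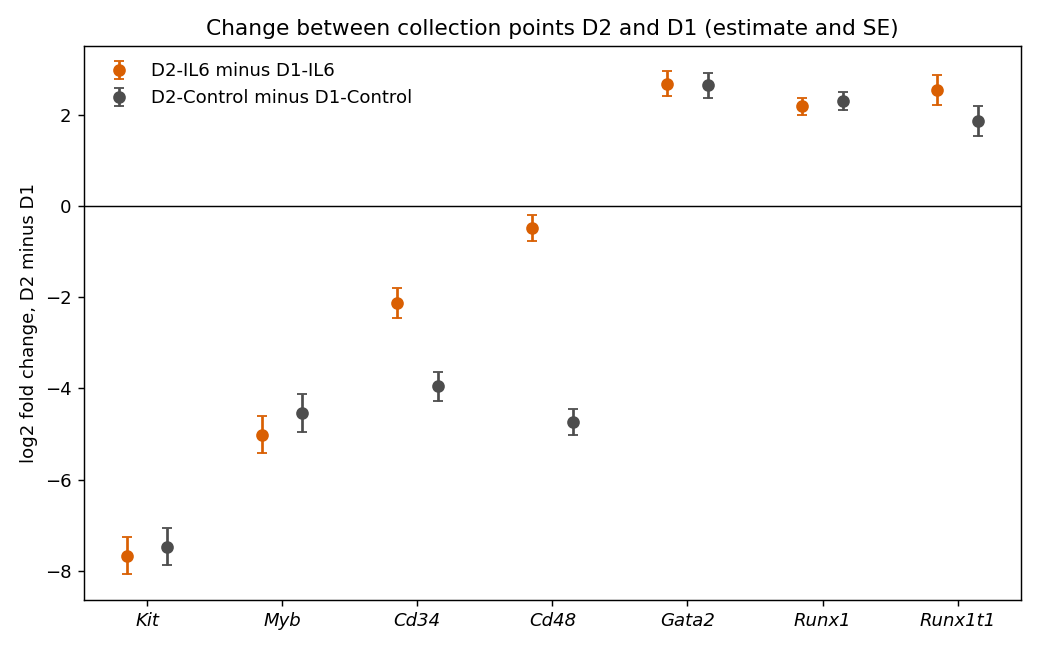
Log2 fold change from D1 to D2 (vertical axis) of the 7 genes (horizontal axis), with interleukin 6 in orange and without it in grey, as the estimate with its SE (n = 2 arrays per group). Kit and Myb lie at or below -4.54 in both cultures, Gata2, Runx1 and Runx1t1 lie above 0, and Cd48 lies at -0.49 with interleukin 6 and at -4.73 without it.

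Markers of 3 myeloid lists were higher with interleukin 6 at D2, as Cd48 and Cd34 were, while none of the 7 T and NK cell, 6 B cell, 5 eosinophil, 6 dendritic cell and 11 mast cell and basophil markers passed in limma (2 of these 35 had an unadjusted p under 0.05). In this comparison 3.31% of all genes passed (2.92% higher), a share that stands behind the counts of all 3 lists. Of 8 measured monocyte and macrophage markers, 6 were higher with interleukin 6 at D2 and Cx3cr1 was lower. The list averaged 11.42 and 11.21 in D2-IL6 arrays against 7.99 and 7.82 in D2-Control arrays. Csf1r, the CSF1 receptor gene of macrophages, was 5.63 ± 0.24 log2 higher with interleukin 6. Of 7 granulocyte progenitor markers, 4 were higher (Elane, Prtn3, Ctsg and Mpo), Elane, which encodes neutrophil elastase, by 3.50 ± 0.34. Of 10 neutrophil markers 4 were higher (Mmp8, Lcn2, Csf3r and S100a8). The neutrophil list averaged 8.36 and 8.08 in D2-IL6 arrays against 5.90 and 5.86 in D2-Control arrays. The part of these cell types in the Cd48 and Cd34 differences was not tested.

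Some basophil genes were lower at D2, as Kit was. Of 11 measured mast cell and basophil markers, 4 fell with interleukin 6 (20.2% of all genes) and 7 did not pass, and 4 fell (23.5%), 2 rose and 5 did not pass without it. Those that fell in both cultures were Prss34 and Mcpt8 (basophil proteases), Cpa3 and Fcer1a. Prss34 had 5.95 and 5.90 in D2-IL6 arrays, near background, against 13.15 and 14.00 in D1-IL6 arrays, and 6.09 and 7.07 in D2-Control arrays, near background, against 13.41 and 14.64 in D1-Control arrays. The mast cell proteases Cma1, Tpsab1, Tpsb2 and Mcpt4 were near background in 20 of 20 arrays, although Mcpt4 and Tpsab1 passed as higher at D2 without interleukin 6. The erythroid list stayed between 14.36 and 14.63 in all 8 cultured arrays. Granulocyte progenitor markers were also lower on average, so the fall was not particular to basophil genes. That list averaged 8.64 to 8.87 in D2-IL6 arrays against 11.39 to 11.55 in D1-IL6 arrays. Without interleukin 6 it averaged 7.10 to 7.22 at D2 against 9.88 to 10.64 at D1. The part of basophils or granulocyte progenitors in the fall of Kit was not tested.

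Among 19 measured genes of KIT signalling, 5 rose and 5 fell between D1 and D2 with interleukin 6 (median -0.22, against 0.09 over all genes tested), and 5 rose and 6 fell without it (median -0.31, against 0.17). Over all genes 13.0% rose and 20.2% fell with interleukin 6, and 19.7% rose and 23.5% fell without it, shares that also stand behind the counts of the other lists. The adaptor gene Dok1 rose by 3.39 ± 0.20 with interleukin 6 and by 3.49 ± 0.20 without it. Pik3r1, which encodes a PI3-kinase subunit, rose by 2.33 ± 0.11 and by 2.16 ± 0.11. Cbl, whose product is a ubiquitin ligase of activated KIT, had -1.32 ± 0.30 with interleukin 6 and -3.12 ± 0.30 without it, and passed in both. Ptpn6, which encodes the phosphatase SHP-1, fell without interleukin 6, by at least 2.83 on the log2 scale. At D2, 2 of the 19 were higher with interleukin 6, Ptpn6 by at least 1.56 log2 and Cbl by 2.00 ± 0.30, and the other 17 did not pass. Kitl, which encodes stem cell factor, was near background in 20 of 20 arrays (4.82 to 6.10).

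Of 18 measured partners of RUNX, GATA2 and MYB in transcription complexes, 4 rose and 9 fell to D2 with interleukin 6 (median -0.68), and 4 rose and 10 fell without it (median -0.96). Cbfa2t3, which encodes ETO2, rose by 3.21 ± 0.30 with interleukin 6 and by 3.52 ± 0.30 without it. Ldb1, which bridges GATA and TAL1 complexes, had -2.51 ± 0.20 and -2.72 ± 0.20, and Runx3 was at least 2.47 and at least 2.53 log2 lower. At D2 Tcf12 was higher with interleukin 6 (1.64 ± 0.36) and the other 17 partners did not pass. Of 16 measured stem and early progenitor genes, 3 fell and 0 rose with interleukin 6, Muc13 (at least 3.63 log2 lower), Meis1 (at least 0.88) and Adgrg1 (-0.99). Without it 6 fell, among them Muc13 (-3.83 ± 0.34), and Mecom rose. Cd93, a surface protein of early progenitors and myeloid cells, was at least 2.09 log2 higher with interleukin 6 at D2. Of 10 genes associated with MYB, KIT or early erythroid progenitors, 8 fell with interleukin 6 and 7 without it, and 0 rose in either (medians -0.83 and -0.75). The survival gene Bcl2 was at least 1.48 log2 lower at D2 with interleukin 6 and at least 2.05 without it, and Bcl11a, a globin switching repressor, had -2.18 ± 0.25 and -2.25 ± 0.25.

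In DKO erythroblasts the 2 arrays of a stage differed widely in Kit, Cd34 and Myb. At stage I, Kit had 12.26 in replicate 1 and 5.76, near background, in replicate 2, against 14.28 and 14.10 in DWT-I. At stage II+III, Kit had 14.46 and 10.37 in DKO arrays against 14.48 and 14.90 in DWT arrays, and the gap of 4.09 within the DKO pair, with both signals above background, was larger than that of 99.4% of genes above background. At stage IV, Kit had 12.29 and 6.00, the second near background, in DKO arrays against 11.29 and 11.62 in DWT arrays. The DKO array numbered replicate 2 was thus below both DWT arrays at every stage. The array numbered replicate 1 was below them at stage I, narrowly below them at stage II+III and above them at stage IV. The numbers do not tie DKO arrays of separate stages to 1 mouse.

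Cd34 and Myb differed within the DKO pairs in the same order as Kit. Cd34 had 10.59 and 7.59 in DKO-I arrays against 12.26 and 12.18 in DWT-I arrays, 13.25 and 8.62 in DKO-II+III against 12.52 and 12.83 in DWT-II+III, and 9.67 and 6.57 in DKO-IV against 6.80 and 8.79 in DWT-IV. Myb had 11.79 and 9.23 in DKO-I against 13.31 and 13.33 in DWT-I, 14.06 and 10.71 in DKO-II+III against 13.76 and 13.41 in DWT-II+III, and 11.46 and 8.12 in DKO-IV against 10.22 and 10.90 in DWT-IV. At stage II+III 1 DKO array was above both DWT arrays for Cd34 and Myb and the other below both, and the same held for Myb at stage IV. For Cd34 at stage IV, DKO replicate 2 and DWT replicate 1 were both near background, so their order is not measured. At stage I both DKO arrays were below both DWT arrays.

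Cd48 differed by 0.06 to 0.54 within the DKO pairs, the gap at stage IV being larger than that of 69.6% of genes above background. It had 15.32 and 15.27 in DKO-I against 15.33 and 15.18 in DWT-I, 15.49 and 15.08 in DKO-II+III against 14.42 and 14.52 in DWT-II+III, and 12.89 and 12.35 in DKO-IV against 10.87 and 11.62 in DWT-IV. It was above both DWT arrays in all 4 DKO arrays of stages II+III and IV. Runx1t1 was near background in every DKO array, so its values there have no order, with 6.07 and 6.33 in DKO-I against 6.95 and 6.31 in DWT-I, 6.15 and 6.19 in DKO-II+III against 8.65 and 8.14 in DWT-II+III, and 6.89 and 5.97 in DKO-IV against 10.85 and 9.92 in DWT-IV. The DWT arrays were near background at stage I and above it at both later stages. Gata2 had 7.76 and 8.42 in DKO-I against 9.33 and 9.80 in DWT-I, 10.96 and 8.79 in DKO-II+III against 12.92 and 12.51 in DWT-II+III, and 10.00 and 8.33 in DKO-IV against 10.12 and 10.69 in DWT-IV. All 6 DKO arrays were below both DWT arrays of their stage for Gata2, narrowly so for DKO-IV replicate 1. Of all genes, 17.4%, 21.2% and 23.4% had both DKO arrays below at stages I, II+III and IV. The share below at every stage was not counted. Gata2 passed at none of the stages in limma (adjusted p = 0.348, 0.147 and 0.739). Runx1 had 10.93 and 8.47 in DKO-I against 11.79 and 11.72 in DWT-I, 11.21 and 11.27 in DKO-II+III against 11.91 and 12.16 in DWT-II+III, and 11.19 and 10.08 in DKO-IV against 11.16 and 11.29 in DWT-IV.

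**Figure D3:**
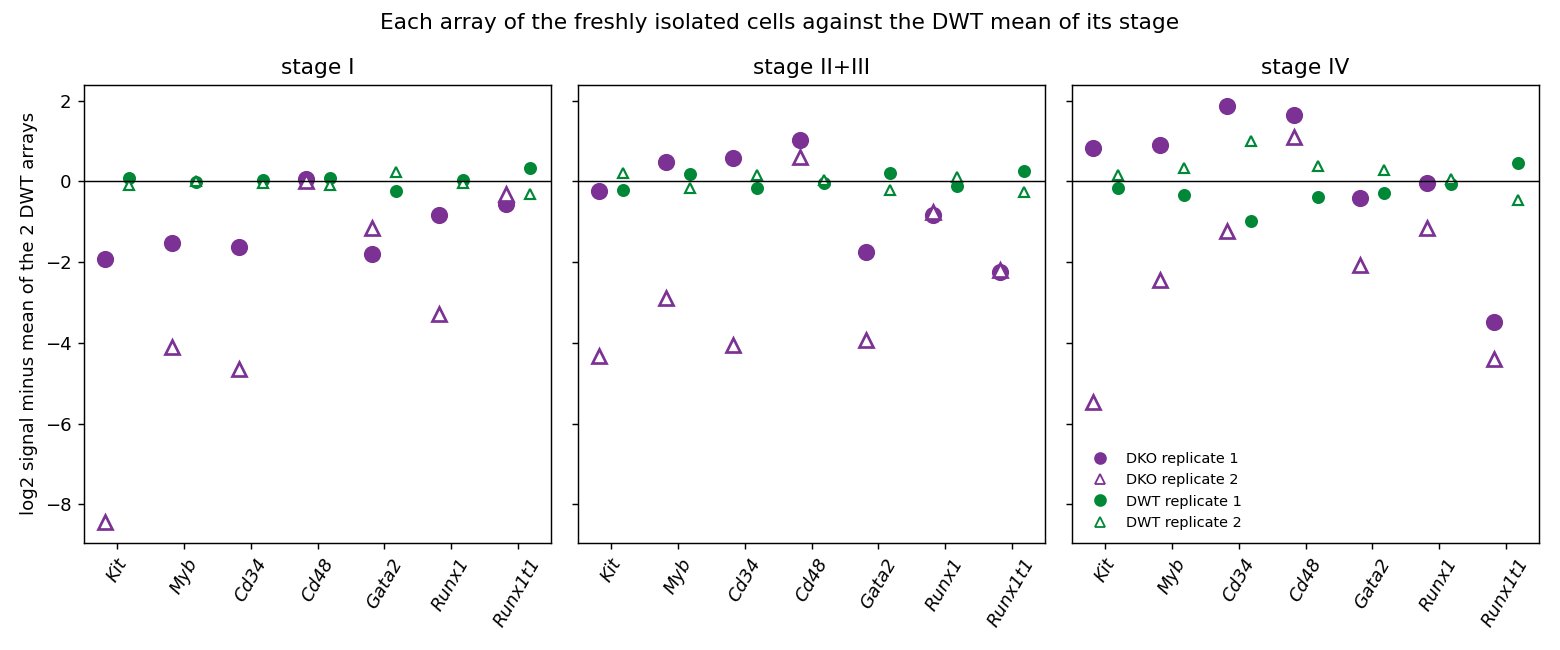
Log2 signal of each array minus the mean of the 2 DWT arrays of its stage (vertical axis) for the 7 genes (horizontal axes), with DKO arrays in purple, DWT arrays in green, circles for replicate 1 and triangles for replicate 2. The DKO triangles lie far below 0 for Kit at all 3 stages, and both DKO arrays lie below DWT for Runx1t1 at stages II+III and IV. Replicate numbers do not pair DKO arrays across stages.

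Only Runx1t1 passed between genotypes, and only at stage IV. It was at least 6.79-fold lower in DKO than in DWT arrays (-3.95 ± 0.43 log2, adjusted p = 0.0191), where 0.0460% of all genes passed (0.0255% lower). The call was lost with only the 4 arrays (adjusted p = 0.102), a fit that called 0 of all 19572 probe sets. It was also lost without DWT-IV replicate 1, without DKO-IV replicate 1 and without DKO-IV replicate 2. Each of these left 1 array in a group, with differences of -3.48, -4.41 and -3.49. At stage II+III Runx1t1 was at least 1.82-fold lower in DKO, with an adjusted p of 0.0527 (-2.23 ± 0.43), and it passed without DKO-I replicate 2 in the shared fit (0.0232). At stage I it was near background in both genotypes (-0.43 ± 0.43, adjusted p = 0.598). The difference of the DKO effects between stages did not pass for Runx1t1, at -1.79 for stage II+III minus I and -1.72 for stage IV minus II+III (adjusted p = 0.799 and 1.00).

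At stage I none of the 7 genes passed in limma, 3 had an unadjusted p under 0.05 (Kit, Myb and Runx1) and 0.445% of all genes passed. The fitted DKO minus DWT differences were -5.18 ± 2.19 for Kit, -3.13 ± 1.49 for Cd34, -2.81 ± 1.23 for Myb, -2.05 ± 0.69 for Runx1, -1.48 ± 0.73 for Gata2 and 0.04 ± 0.37 for Cd48. In 5 of the 7 both DKO arrays lay below both DWT arrays, against 17.4% of all genes. Without DKO-I replicate 2, which stood apart, Kit differed by -1.93 ± 2.09, Cd34 by -1.63 ± 1.66, Myb by -1.53 ± 1.35 and Runx1 by -0.82 ± 0.45, none with an adjusted p under 0.05. If DKO-I replicate 1 is left out instead, the DKO-I group holds 1 array, the one with low positive controls, and its spread is borrowed from the remaining groups. Myb then differed by -4.09 and Runx1 by -3.28. Kit was near background in that array, so the size of its difference is not measured.

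At stage II+III none of the 7 passed in limma, 3 had an unadjusted p under 0.05 (Cd48, Gata2 and Runx1t1) and 0.618% of all genes passed. Gata2 had a difference of -2.84 ± 0.73 (adjusted p = 0.147) and Cd48 of 0.82 ± 0.37 (adjusted p = 0.535). At stage IV Cd48 had 1.38 ± 0.37 (adjusted p = 0.307). For Kit the differences were -2.28 ± 2.19 and -2.32 ± 2.19 at these stages, smaller than 2 SE, so the arrays did not separate a change from none. Both DKO arrays lay below both DWT arrays in 4 of the 7 genes at stage II+III and in 2 at stage IV, where 21.2% and 23.4% of all genes did so, and above them for Cd48 at both stages (23.0% and 22.4%). Among DKO arrays, Cd48 fell by 2.66 ± 0.37 from stage II+III to IV (adjusted p = 0.00502), where 7.77% of all genes passed (3.66% lower). The call was lost without DKO-IV replicate 2 (adjusted p = 0.0535). From stage I to II+III none of the 7 passed in DKO arrays (2 with an unadjusted p under 0.05, 0.327% of all genes).

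Mean signals of other cell types' marker lists also differed between and within the genotypes. The T and NK cell list averaged 10.71 and 10.34 in DKO-I arrays against 8.42 and 8.71 in DWT-I arrays, with 2 of 7 markers higher (0.445% of all genes passed there). It averaged 12.51 and 11.29 in DKO-II+III against 10.56 and 10.89 in DWT-II+III arrays, and 11.12 and 8.31 in DKO-IV against 8.75 and 9.25 in DWT-IV arrays, with none of the 7 passing in limma at either stage (3 and 0 with an unadjusted p under 0.05). Its part in the Cd48 differences was not tested. At stage II+III the neutrophil list averaged 15.82 and 15.80 in DKO arrays against 11.88 and 13.58 in DWT arrays, and the erythroid list 11.69 and 12.47 against 14.35 and 13.63. At stage IV the erythroid lists were close, at 15.16 and 15.14 in DKO and 15.45 and 15.22 in DWT arrays, while the neutrophil list averaged 12.95 and 12.44 against 7.98 and 10.47. None of the 10 neutrophil markers passed between genotypes at either stage in limma, and 8 had an unadjusted p under 0.05 at each. Of the 9 erythroid markers, 3 passed at stage II+III and 0 at stage IV, where 0.618% and 0.0460% of all genes did. Within the DKO pairs the mast cell and basophil list had the order of Kit, with 7.34 and 6.71 at stage I, 8.92 and 7.77 at stage II+III and 8.38 and 6.50 at stage IV. Prss34 had 10.03 and 6.86, then 14.60 and 12.20, then 13.89 and 8.86 in these arrays, and Cpa3 8.21 and 8.17, then 12.12 and 7.98, then 10.92 and 7.56. The eosinophil list did likewise, with 10.50 and 6.75, 12.21 and 8.60, and 8.34 and 6.59, and the B cell list differed at stages II+III (9.51 and 7.13) and IV (10.42 and 6.72) but not at stage I (7.46 and 7.56). The T and NK cell list also had the order of Kit at all 3 stages, and the erythroid list did not at stage II+III. So did the neutrophil list, with 17.26 and 15.75, 15.82 and 15.80, and 12.95 and 12.44, nearly equal at stage II+III. The order was thus not particular to the mast cell and basophil list. The granulocyte progenitor arrays of the DKO pairs lay at 10.40 and 13.86 (stage I), 13.20 and 13.89 (stage II+III) and 8.05 and 10.60 (stage IV), lower value first. The share of all genes with the order of Kit was not counted. The part of these cells in the differences of Kit, Cd34 and Myb was not tested.

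**Figure D4:**
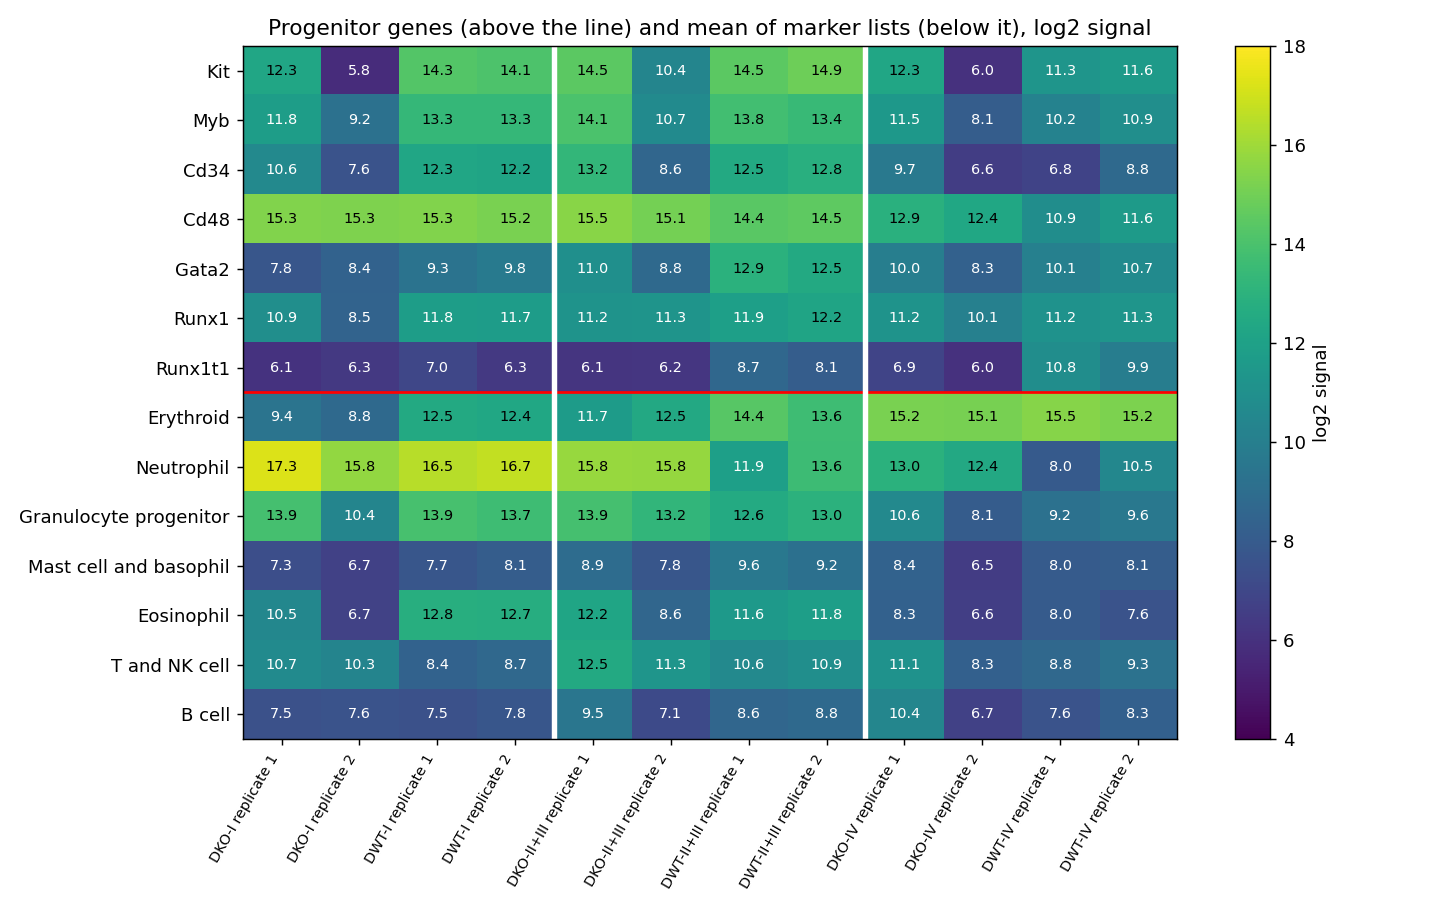
Log2 signal of the 7 genes (above the red line) and mean log2 signal of 7 marker lists (below it) in each of the 12 arrays of freshly isolated cells, as colour and as printed values, with stages separated by white lines. The neutrophil list is high in all stage I arrays and in both DKO-II+III arrays. The mast cell and basophil, eosinophil, and T and NK cell lists are lower in replicate 2 than in replicate 1 of every DKO group. The neutrophil list is too, though nearly equal at stage II+III. These numbers carry no pairing across DKO stages.

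Of the erythroid markers, 7 of 9 were lower in DKO at stage I, where 0.445% of all genes passed. In the same comparison 2 of 18 partners were lower, Zfpm1 (the GATA1 cofactor FOG1, -5.58) and Gfi1b (-2.73), and none higher. Of 10 genes associated with MYB, KIT and early erythroid progenitors, 3 were lower, Zfpm1 again, Klf1 (-3.33 ± 0.53, adjusted p = 0.0245) and Epor, the erythropoietin receptor, at least 2.15 log2 lower. Klf1 and Epor also belong to the erythroid markers, whose part in these calls was not tested. No gene of the 4 lists passed between genotypes at stage IV, and at stage II+III the KIT signalling gene Pik3r1 was lower in DKO (-2.15). Between stages II+III and IV in DKO arrays, Gata1 rose by 2.44 ± 0.46, Epor by 3.64 ± 0.44, Klf1 by 2.96 ± 0.53 and Tfrc, the transferrin receptor, by 3.33 ± 0.74, while Cdk6 (-3.06 ± 0.56) and Runx3 (-3.26 ± 0.80) fell. In DWT arrays over that step Gata1 was also called higher and Klf1 was not (1.42 ± 0.53, adjusted p = 0.15). The difference of these steps between the genotypes passed for none of the 19572 probe sets in limma (0.00%, 662 with an unadjusted p under 0.05).

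Along the DWT stages, Kit, Cd34 and Myb were high at stages I and II+III and lowest at stage IV in every array, where Kit and Myb remained above background, unlike in the D2 cultures. Gata2 had its highest DWT signals at stage II+III, at 12.92 and 12.51. Runx1 stayed between 11.16 and 12.16 over the 6 DWT arrays. Cd48 had its lowest and Runx1t1 its highest DWT signals at stage IV.

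From stage II+III to stage IV in DWT, 2 of the 7 genes passed in the fit of all 12 arrays, where 5.16% of all genes did (1.59% higher and 3.57% lower). Cd48 fell by 3.23 ± 0.37 (adjusted p = 0.0113) and Runx1t1 rose by 1.99 ± 0.43 (adjusted p = 0.0305). Kit (-3.23 ± 2.19, adjusted p = 0.423), Cd34 (-4.88 ± 1.49, adjusted p = 0.0873), Gata2 (-2.31 ± 0.73, adjusted p = 0.096) and Myb (-3.03 ± 1.23, adjusted p = 0.185) did not pass. The spread in that fit is shared with the DKO arrays, which differ widely for these 4 genes. With only the 4 DWT arrays of the 2 stages, 6 of the 7 passed, 1 higher and 5 lower, where 2788 of 19572 probe sets did. Kit then had an SE of 0.29 and an adjusted p of 0.0066. The 6 DWT arrays with the mouse as a block also gave 6, where 4283 probe sets passed. With an array of either stage left out, 1 group held 1 array, and neither the Cd48 nor the Runx1t1 call was kept in every such fit. Over all alternatives Cd48 differed by -3.60 to -2.85 and Runx1t1 by 1.52 to 2.45. From stage I to stage II+III none of the 7 passed in limma, 2 had an unadjusted p under 0.05 and 0.245% of all genes passed. Those were Gata2 (3.15 ± 0.73, adjusted p = 0.156) and Runx1t1 (1.77 ± 0.43, adjusted p = 0.198), and both passed with only the 4 DWT arrays (0.00115 and 0.0183) and with the mouse as a block. The 4-array fit called 911 of 19572 probe sets and the block fit 831.

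Other genes of the 4 lists moved between DWT stages too. From stage II+III to IV, 2 of 18 partners rose, Gata1 by 2.23 ± 0.46 and Lmo2 by 1.69, and 4 fell, among them Runx3 by at least 3.99 log2, Fli1 (-3.29 ± 0.69) and Cbfb (-2.46 ± 0.35), which encodes the partner subunit of RUNX proteins. Of the genes associated with MYB and KIT, 3 of 10 fell, Myc (-4.33 ± 0.84), Cdk6 (-3.85 ± 0.56) and Bcl2 (-3.28 ± 0.73). Of 19 KIT signalling genes 2 fell, Ptpn6 (-3.53 ± 0.85) and Btk (-1.97 ± 0.40), and of 16 stem and early progenitor genes 2 fell, Cd93 by at least 2.86 and Meis1 by at least 2.67 log2. Markers of other cells moved over the same step, with 6 of 10 neutrophil and 5 of 8 monocyte and macrophage markers lower at stage IV. The neutrophil list averaged 7.98 and 10.47 in DWT-IV arrays against 11.88 and 13.58 in DWT-II+III arrays, and the monocyte list 9.26 and 10.13 against 12.02 and 13.00. The mast cell and basophil list averaged 8.05 and 8.11 in DWT-IV arrays against 9.62 and 9.15 in DWT-II+III arrays, with Prss34 at 14.72 and 14.70 against 16.77 and 16.56. Their part in the stage differences was not tested.

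Over the 10 groups, mean Kit was 14.69 ± 0.30 (SD, n = 2) in DWT-II+III, 14.19 ± 0.13 in DWT-I, 13.11 ± 0.35 in D1-Control, 12.90 ± 0.13 in D1-IL6 and 12.42 ± 2.89 in DKO-II+III. It was 11.46 ± 0.23 in DWT-IV, 9.14 ± 4.44 in DKO-IV, 9.01 ± 4.60 in DKO-I, 5.64 ± 0.20 in D2-Control and 5.23 ± 0.97 in D2-IL6, both near background. Only DWT-I and D1-Control had arrays that did not overlap those of the next higher group, so the order of the other neighbouring groups is not settled. Groups further apart could be separate. The D2 arrays (4.54 to 5.92) lay below the DWT-IV arrays (11.29 and 11.62), and these below the D1 arrays (12.81 to 13.35). Myb had the same top 2 groups, DWT-II+III at 13.59 ± 0.25 and DWT-I at 13.32 ± 0.02, and the same bottom pair. Cd34 was highest in the same 2 groups and lowest in D2-Control at 6.67 ± 0.39. Gata2 and Runx1 had D2-Control and D2-IL6 on top, at 13.32 ± 0.04 and 13.06 ± 0.06 for Gata2 and 13.96 ± 0.28 and 13.86 ± 0.20 for Runx1, and DKO-I at the bottom. Runx1t1 was highest in DWT-IV at 10.38 ± 0.66 and near background in both arrays of D1-IL6, D1-Control, DWT-I and all DKO groups, which have no order among them. Levels across the cultured and freshly isolated arrays rest on the authors' normalization, which the sources used here do not say was done jointly.

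The patterns of single genes over the 20 arrays were compared by Pearson correlation, and these values are descriptions only. The groups differ in culture or fresh isolation, stage and amplified cell mixture. Kit was most like Myb (r = 0.95), followed by Cdca7 (0.95), Prss34 (0.94), Shfl (0.93) and Mpo (0.93). By rank correlation Prss34 stood only at place 202 of 9724 genes for Kit. Myb was most like Tnrc6c (0.96), Kit (0.95) and Shfl (0.94), and Cd34 most like Man2a2 (0.95), Macroh2a1 (0.95) and Rnf220 (0.93). Cd48 was most like Gmfg, Plp2 and Myo1g (0.99 each). Gata2 had the loosest neighbours, Rcl1 (0.86), Msi2 (0.86) and Oga (0.84), and Runx1 was most like Tut4 (0.95), Tnpo1 (0.95) and Yipf3 (0.93). Runx1t1 was most like Foxo4 (0.91), Pcx (0.90) and Denn2b (0.88). Among the members, Kit, Cd34 and Myb correlated at 0.85 to 0.95 with each other and Gata2 and Runx1 at 0.83, whereas Kit and Gata2 correlated at -0.22.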

How the data were processed

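RNA was measured on 20 arrays, 2 in each of 10 groups taken from the labels. The authors deposited log2 signals from RMA in Affymetrix Expression Console, per the submitters' processing notes (versions and joint normalization not given), after labelling cDNA from 700 pg of total RNA with a Pico kit, per the labels' protocols. These values were used as they stand. The 19572 probe sets with 1 gene symbol, of 22206 for transcripts, were tested.

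The 8 cultured and the 12 in vivo arrays were fitted separately with limma 3.58.1 in R 4.3.3 (lmFit, eBayes with an intensity trend). P-values were 2-sided, Benjamini-Hochberg adjusted over 19572 probe sets, with 0.05 as threshold. Differences are first minus second group, ± SE. Nothing states separate cultures, so p-values there measure the spread between arrays, which may be technical. A fold written "at least" is a bound against the 95th percentile of the 23 background probe sets of each array. List values take 1 probe set per gene. Figures were drawn with matplotlib 3.10.9.

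The 7 genes, the gene lists and the alternatives were chosen with earlier results of these data known. Named genes are the 7, the 3 most correlated genes of each (5 for Kit), up to 4 passing genes of each list by size of change, and Gata1, Klf1 and Kitl; basophil and other marker genes beyond these were chosen after their values were seen. DWT arrays pair by mouse (1 male, 1 female, from the labels); the male minus female differences of 2 stages correlated at 0.0989, 0.0214 and 0.124 over genes. The code was tested on simulated data.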

Additional observations from a re-analysis of the deposited data

Results flagged for a closer look

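The interleukin 6 effect on Cd48 differed between the collection points by a test of the difference itself. The effect at D2 exceeded that at D1 by 4.25 ± 0.40 on the log2 scale (limma, adjusted p = 0.000553), with D2-IL6 arrays at 12.18 and 11.80 against D2-Control arrays at 7.59 and 7.06, and D1-IL6 arrays at 12.44 and 12.51 against D1-Control arrays at 11.78 and 12.33. Both arrays of each D2 group showed this direction. Of the D2-Control arrays 1 was near background, so the size is not exact.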

How the results depend on the processing

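The alternatives were quantile normalization, centring of arrays, no intensity trend, only the 4 arrays compared, all 20 arrays in 1 fit, only probe sets above background in at least 2 arrays, array weights, unnamed probe sets included and each array left out. Calls among the 7 genes for D2 over D1 (6 with and 7 without interleukin 6), interleukin 6 at D1 and the Cd48 difference of effects stayed within 1.5 times under them. Interleukin 6 at D2 gave 1 in place of 2 with only the 4 arrays and with all 20, and 1 to 2 with an array left out. For DKO over DWT, stage I gave 0 to 3 with an array left out. Stage II+III gave 2 (Gata2 and Runx1t1) with all 20 arrays, 1 (Runx1t1) with the background filter, with array weights and, chosen after seeing the data, without DKO-I replicate 2 in the shared fit, and 0 to 1 with an array left out. Stage IV gave 0 with only the 4 arrays and 0 to 1 with an array left out. II+III over I in DWT gave 2 with only the 4 arrays, all 20 arrays, array weights or the replicate block in 6 DWT arrays, and 0 with the replicate block in the 12-array fit, added later. IV over II+III in DWT gave 6 with only the 4 arrays or that replicate block, 4 with all 20 arrays, array weights or without DKO-I replicate 2 in the shared fit, 2 with the block in the 12-array fit and 0 to 2 with an array left out. In DKO arrays II+III over I gave 0 to 2 and IV over II+III 0 to 1 with an array left out, and the difference of DKO effects between II+III and I gave 0 to 1. No paired analysis was possible because neither the cultures nor the genotypes share mice by their labels, other than between DWT stages.

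Signs that turned belonged to differences that did not pass. For DKO over DWT, Cd48 at stage I gave -0.061 with centred arrays and -0.040 to 0.12 with an array left out. With an array left out, stage II+III gave -4.06 to 0.57 for Cd34 and -2.88 to 0.47 for Myb, and stage IV gave -5.46 to 0.83 for Kit, -2.44 to 0.90 for Myb and -1.23 to 1.88 for Cd34 (-0.67 without DWT-IV replicate 1). Over all genes, calls for DKO over DWT at stage I numbered 87, against 0 with only the 4 arrays, 26 with array weights, 502 with all 20 arrays and 6066 without DKO-I replicate 1. For II+III over I in DWT they numbered 48 against 911 with only the 4 arrays, and for IV over II+III 1010 against 2788. The cause was not tested. With 2 arrays per group and many signals near background, the arrays limit the precision.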
